A study of Homo sapiens with 12 samples.

Results

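The genes of glycolysis and of the response to hypoxia described here are 36 genes named one by one. All 36 were found among the 37471 genes of the expression table that were analysed. They comprise glucose transporters, hexokinases, the enzymes from glucose phosphate to pyruvate and lactate, kinases of the pyruvate dehydrogenase complex, the hypoxia-inducible factor (HIF) alpha subunits, their prolyl hydroxylases and further HIF target genes. Measurements came from CAL62, an established line of anaplastic thyroid carcinoma, a tumour of thyroid follicular cells that has lost most thyroid functions. Of 2 isogenic CAL62 lines, the first carries the mature microRNA hsa-miR-139-5p behind a promoter that doxycycline switches on, and the control line carries a scrambled sequence behind the same kind of promoter. Untreated cells of each line (time 0) and cells kept for 96 h in doxycycline at 1 µg/ml gave polyA RNA, so that there were 4 groups of 3 libraries and 12 libraries in all. Cells were kept in RPMI medium with serum, and the labels name no exposure to low oxygen. Whether each line is 1 clone or a pool of transduced cells is not given in the sources used here.

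Glycolysis splits glucose into pyruvate in the cytosol, and lactate dehydrogenase turns pyruvate into lactate, which regenerates the NAD+ that the pathway uses. Many tumour cells run glycolysis at a high rate even where oxygen is present. When oxygen is low, the prolyl hydroxylases EGLN1, EGLN2 and EGLN3 no longer mark the alpha subunits HIF1A and EPAS1 for destruction, and the stabilised factors raise transcription of glucose transporters, most glycolytic enzymes and genes such as ADM and BNIP3. That control acts on the protein, so the mRNA levels measured here do not give the activity of HIF.

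Values are FPKM, fragments divided by the length of the transcript and the total of the library. Each column of the table carried, beside its group, a tag (C, NE or TR) whose meaning is not given, and each group holds 1 library of each tag. Libraries of one tag deviated together from their group means (r from 0.33 to 0.86 in 18 same-tag pairs, from −0.66 to 0.14 in 36 pairs of different tags). The NE libraries stood apart: mitochondrially encoded genes took 5.45 to 8.57% of the summed FPKM in NE, 10.7 to 12.1% in C and 11.5 to 12.3% in TR. The mitosis genes CDK1, AURKA, PLK1 and 7 others summed to 907.5 to 1054 FPKM in NE, above the 714.7 to 813.4 in C and 736.9 to 805.7 in TR. The depth relative to the untreated C library of the miR-139 line, read from the steps of low values, ranged from 0.72 to 1.5, and the absolute depth is unknown. HNRNPF, the mRNA that the study follows as a target of the microRNA, was at 183.6 to 237.6 FPKM in untreated cells of the miR-139 line and 85.9 to 113 after doxycycline, against 187.9 to 245.8 and 184.3 to 265.2 in the scrambled line. Of the thyroid markers, PAX8 was at 56.0 to 141.7 FPKM, whereas NKX2-1 was listed at 0 and TSHR and SLC5A5 were near 0. Of the markers of other cell types, PTPRC and CD3E of leukocytes, COL3A1 of fibroblasts and KRT1 and KRT5 of keratinocytes were listed at 0 in all 12 libraries. In the same lists COL1A1 was at 33.2 to 100.4 FPKM, KRT10 at 9.97 to 22.3, CD68 at 5.32 to 12.6 and the endothelial ESAM at 0.746 to 2.91, and 1 marker of each list passed the minimum for testing. The summed keratinocyte markers were at 16.8 to 22.3 FPKM in NE, 9.97 to 11.9 in C and 13.1 to 16.3 in TR, and the leukocyte markers at 7.92 to 11.6, 9.97 to 12.6 and 5.44 to 6.98.

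Most of the pathway was expressed at a high level. GAPDH, which oxidises glyceraldehyde phosphate, was the most abundant member with a mean of 2706 FPKM (2281 to 3638 over the 12 libraries), rank 23 of the genes analysed. Enolase ENO1 (1464 FPKM), pyruvate kinase PKM (1420), aldolase ALDOA (1254), lactate dehydrogenase LDHA (1164) and triosephosphate isomerase TPI1 (1104) followed, and the last of these ranked 90. LDHB, the other lactate dehydrogenase subunit, had a mean of 929 FPKM, so that LDHA made up 43.4 to 62.9% of the sum of both. The least abundant members were found among the inducible forms and the regulators. Hexokinase HK2, the form that many tumours induce, had 7.55 FPKM and was 6.44 to 9.58% of the sum with HK1 (88.8 FPKM). The glucose transporter SLC2A1 had 63.4 FPKM, and SLC2A3, a high-affinity transporter, 5.27. Of the phosphofructokinase subunits, PFKP (152.4 FPKM) was above PFKM (62.8) and PFKL (35.4) in 12 of 12 libraries, at 57.6 to 64.0% of their sum.

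HIF1A, at a mean of 69.9 FPKM, was above EPAS1, at 11.4, in all 12 libraries, and their ratio, EPAS1 over HIF1A, ranged from 0.0889 to 0.248. Among the prolyl hydroxylases EGLN2 had 37.5 FPKM and EGLN1 13.7. EGLN3, which HIF itself induces in many cells, was listed at 0 in 8 of 12 libraries and reached 0.0738 FPKM at most. The aldolase ALDOC reached 0.989 FPKM. EGLN3 and ALDOC were below the mean of 1 FPKM that the test required, which left 34 of the 36 genes tested among 9778 genes. Processed copies took little of the signal: of 70 copies of 14 members, 42 were listed at 0, and the highest was BNIP3P1 with 2.07 FPKM against 63.0 for BNIP3. The 41 copies of GAPDH summed to 0.576 FPKM. Whether strand was used in counting is not given, so reads of a gene that overlaps a member on the opposite strand cannot be told apart from its own.

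The first comparison asked what the induced microRNA changes. A microRNA guides a silencing complex to mRNAs whose 3′ untranslated region (UTR) pairs with its seed, here bases 2 to 8 from the 5′ end. The mature sequence from RefSeq (GRCh38.p14, chr11:72615102-72615124, minus strand) is shown because the sites below pair with its seed, in capitals:

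hsa-miR-139-5p: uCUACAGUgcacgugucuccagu

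The complement of the seed, ACTGTAG, was present in the longest annotated 3′ UTR of 2 of the 34 tested members (5.88%), PGK1 and PDK1, against 11.3% of 7941 tested genes with a 3′ UTR. The shifted site CTGTAGA, which pairs with bases 2 to 7 and has an A opposite base 1, was present in 4 members (11.8%, against 12.4% of those genes): PFKFB3, PGAM1, ENO2 and LDHB. The median 3′ UTR was 961 bases long in the members and 1324 in those genes. The windows around the sites, as DNA of the transcript strand in GENCODE 29 (GRCh38, not the build of the expression table), with the site in capitals, are:

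PGK1: tggcgtgtgccACTGTAGtcccagctatt
PDK1, first site: atttttaaacaACTGTAGttttgggcaac
PDK1, second site: ttcagtgttagACTGTAGttatccaagca
PFKFB3: acaatagaaagCTGTAGAgattgggtttc
PGAM1: actgaccacatCTGTAGAcatcttgagtt
ENO2: atttcatgtggCTGTAGAtcccaagatga
LDHB: tgagctctaggCTGTAGAaatttaaaaac

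Each lies in the last exon of its transcript: PGK1 in exon 11 of 11 (chrX:78128419-78128425), PDK1 in exon 11 of 11 (chr2:172596199-172596205 and chr2:172607952-172607958), PFKFB3 in exon 16 of 16 (chr10:6235337-6235343), PGAM1 in exon 4 of 4 (chr10:97432618-97432624), ENO2 in exon 10 of 10 (chr12:6923407-6923413) and LDHB in exon 8 of 8 (chr12:21635520-21635526, minus strand). A match of letters is a description and not evidence of binding.

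Untreated cells were taken at time 0 and treated cells at 96 h. Within a line, doxycycline and the time in culture therefore cannot be told apart, and a doxycycline change below holds both. Doxycycline moved none of the 34 genes past the threshold in the miR-139 line. In limma, 0 members had a Benjamini-Hochberg adjusted p under 0.05 without the tag in the model (0% of all genes) and 0 with the tag as a replicate block (0.0205% of all genes, that is 2 genes). Without the block the smallest adjusted p of all 9778 genes was 0.337 in limma, so HNRNPF was not called there either. A lack of calls in that fit therefore does not show a lack of change. At an unadjusted p under 0.05 the counts were 0 members without the block (0.736% of all genes) and 4 with it (4.48%). The log2 changes ran from −0.27 to 0.28, with a median of 0.02 against 0.00 for all genes tested. Within all 3 tags 10 members were higher (16.3% of all genes were) and 4 lower (14.5%), and no member had treated and untreated libraries that did not overlap (2.34% of all genes in the higher and 2.05% in the lower direction).

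PFKFB3 makes the sugar bisphosphate that activates phosphofructokinase. Without doxycycline the miR-139 line had 18.8 FPKM in C, 24.6 in NE and 19.01 in TR, and with it 17.2, 19.1 and 14.7. The treated library was the lower one in every tag, but the ranges overlapped. Its log2 change was −0.27 (SE 0.19, adjusted p = 1 in limma; with the replicate block SE 0.10, unadjusted p 0.0130 and adjusted p = 1). EPAS1 went from 17.4, 6.39 and 8.19 to 18.5, 8.92 and 10.6 FPKM, a log2 change of 0.28 (block SE 0.11), and the spread between tags was wider than that change. PDK2, a kinase that inhibits pyruvate dehydrogenase, went from 17.5, 19.2 and 24.5 to 22.9, 25.4 and 25.6 FPKM (log2 0.27, block SE 0.10). P4HA1, a catalytic subunit of the collagen prolyl hydroxylase, went from 17.0, 18.1 and 28.4 to 13.3, 16.4 and 24.9 FPKM (log2 −0.22, block SE 0.10). Both genes kept 1 direction over the tags with overlapping ranges.

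The other genes with a seed match had smaller changes. PDK1, with both ACTGTAG sites, had a log2 change of −0.19 (block SE 0.12), and PGK1 one of 0.03 (block SE 0.12). PGAM1 had −0.06 (block SE 0.12), ENO2 0.06 (block SE 0.10) and LDHB −0.03 (block SE 0.11). PDK1 changed by the same amount in the scrambled line, −0.19. HIF1A had 79.2, 58.5 and 74.2 FPKM untreated and 78.2, 52.9 and 75.8 treated (log2 −0.04, block SE 0.10), LDHA 892.5, 1373 and 1210 against 996.2, 1490 and 1196 (log2 0.09, block SE 0.12), and GAPDH 2281, 2674 and 2768 against 2516, 2944 and 2561 (log2 0.06, block SE 0.14). Each of these stayed within the spread between libraries.

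The scrambled line with the same doxycycline served as the background. Here too 0 of 34 members were called with or without the block (0% of all genes in each). At an unadjusted p under 0.05, 0 members were found without the block (0.481% of all genes) and 3 with it (4% of all genes). Within all 3 tags 9 members were higher (20.2% of all genes) and 4 lower (12.6%), and the median log2 change was 0.06 against 0.02. SLC16A3, which exports lactate, was at 26.3, 33.5 and 29.3 FPKM untreated and 18.4, 27.3 and 25.1 treated in C, NE and TR. It was lower in every tag with overlapping ranges (log2 −0.33, SE 0.16, block SE 0.10, block unadjusted p 0.00542 in limma, adjusted p = 0.998). SLC2A1 was the 1 member whose treated libraries (55.8, 60.6 and 62.5 FPKM) all lay below the untreated ones (65.1, 65.9 and 66.1), as 1.07% of all genes did, and 0 members had them all above (1.62% of all genes). HK2 had a log2 change of 0.24 (block SE 0.13), ADM, the vasodilator peptide adrenomedullin, 0.23 (block SE 0.10) and PDK1 −0.19 (block SE 0.12).

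The interaction, the change in the miR-139 line minus that in the scrambled line, passed for 0 of 34 members with or without the block (0% and 0.0102% of all genes). The unadjusted counts were 0 members without it (0.419% of all genes) and 2 with it (3.44%), P4HA1 and PFKFB3. P4HA1 had an interaction of −0.39 (block SE 0.14), since it was lower after doxycycline in every tag of the miR-139 line and higher in every tag of the scrambled line (15.6, 15.5 and 24.3 FPKM untreated, 18.9, 16.7 and 27.2 treated). PFKFB3 had −0.37 (block SE 0.14), SLC16A3 0.29 (block SE 0.14) and SLC2A3 0.29 (block SE 0.21). None of these 4 passed in limma with or without the block (lowest adjusted p = 1.00).

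After doxycycline the miR-139 line was compared with the scrambled line. Again 0 members were called without the block (0% of all genes) and 0 with it (0.112%), and at an unadjusted p under 0.05 there were 1 and 4 members (1.07 and 7.18% of all genes). ADM was at 22.7, 34.8 and 38.4 FPKM in C, NE and TR of the treated miR-139 line and at 27.9, 53.6 and 60.6 in the treated scrambled line. It was lower in 3 of 3 tags with overlapping ranges (log2 −0.51, SE 0.33 without and 0.10 with the block, block unadjusted p 0.000162, adjusted p = 0.113 in limma). PFKFB3, at 17.2, 19.1 and 14.7 against 22.2, 29.5 and 19.2 FPKM, was the 1 member whose ranges did not overlap in this comparison (2.42% of all genes in that direction, and 1.77% in the higher one, which had 0 members; log2 −0.44, block SE 0.10, block adjusted p = 0.161 in limma). PFKP had a difference of −0.26 (block SE 0.09) and SLC2A3 one of 0.29 (block SE 0.15). Of the 34 members 2 were higher in every tag (13.3% of all genes) and 10 lower (15.1%). The lower ones were HK1, GPI, PFKL, PFKM, PFKP, PFKFB3, PDK1, ADM, P4HA1 and ERO1L.

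The untreated lines were compared in the same way. There ADM was at 22.2, 34.3 and 37.9 FPKM in the miR-139 line, against 25.3, 49.5 and 44.3 for the scrambled line, and was lower in 3 of 3 tags (log2 −0.31, block SE 0.10, block unadjusted p 0.00874 and adjusted p = 0.928 in limma). P4HA1 had an untreated difference of 0.18 (block SE 0.10), LDHB of 0.17 (block SE 0.11) and PDK1 of −0.17 (block SE 0.12). In limma 0 of 34 members were called with or without the block (0% of all genes in each), 0 and 1 at an unadjusted p under 0.05 (0.593 and 4.45% of all genes). PFKFB3 was lower in the miR-139 line in 3 of 3 tags before treatment as well, as were PFKM, PFKP, PDK2 and ADM, 5 members in all (9.4% of all genes), and 1 member was higher in every tag (9.75%). For 0 members did the untreated libraries of the lines not overlap (1.53% of all genes in the higher and 1.38% in the lower direction). The comparisons of treated and untreated lines and of doxycycline in each line share libraries, so these values are not independent of each other. The labels do not say which libraries came from separate cultures, so the p-values measure only the spread between these libraries.

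**Figure D1:**
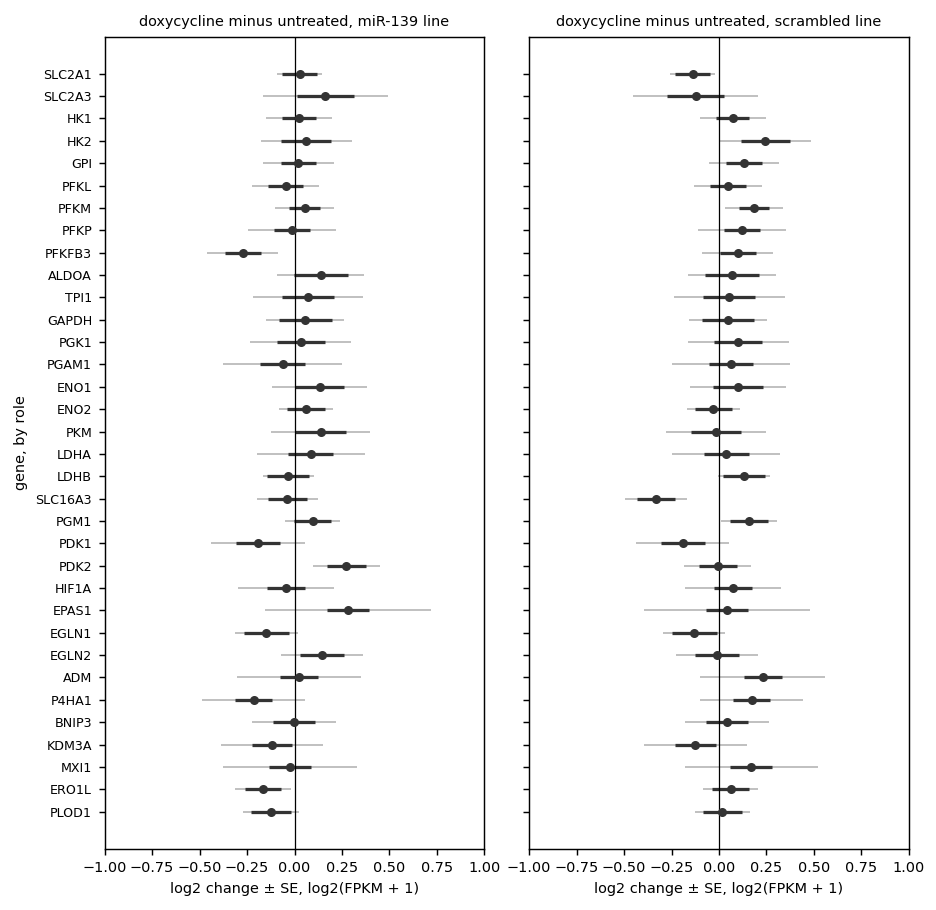
Each point is a gene's log2(FPKM + 1) mean with doxycycline less its mean without (x axis), for the 34 tested genes by role (y axis), with the miR-139 line at left, the scrambled line at right and n = 3 libraries per group; thin grey bars are the SE without and thick bars the SE with the tag as a block. All points lie between −0.33 (SLC16A3, scrambled line) and 0.28 (EPAS1, miR-139 line), and none passed the threshold.

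The column tag, not the microRNA or doxycycline, held most of the variation in these genes. It took a median of 73.2% of a member's sum of squares (7.73% for LDHB to 93.4% for EPAS1) and the group 8.35%, whereas the medians over all genes tested were 58.3 and 11.7%. In 28 of the 34 members the tag held over 50% of it, as it did in 59.7% of all genes. The tags were therefore compared, with the group as a term in limma, for NE against the mean of C and TR and for C against TR. What the tags stand for is not given, so these are differences between sets of libraries and not between known conditions.

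**Figure D2:**
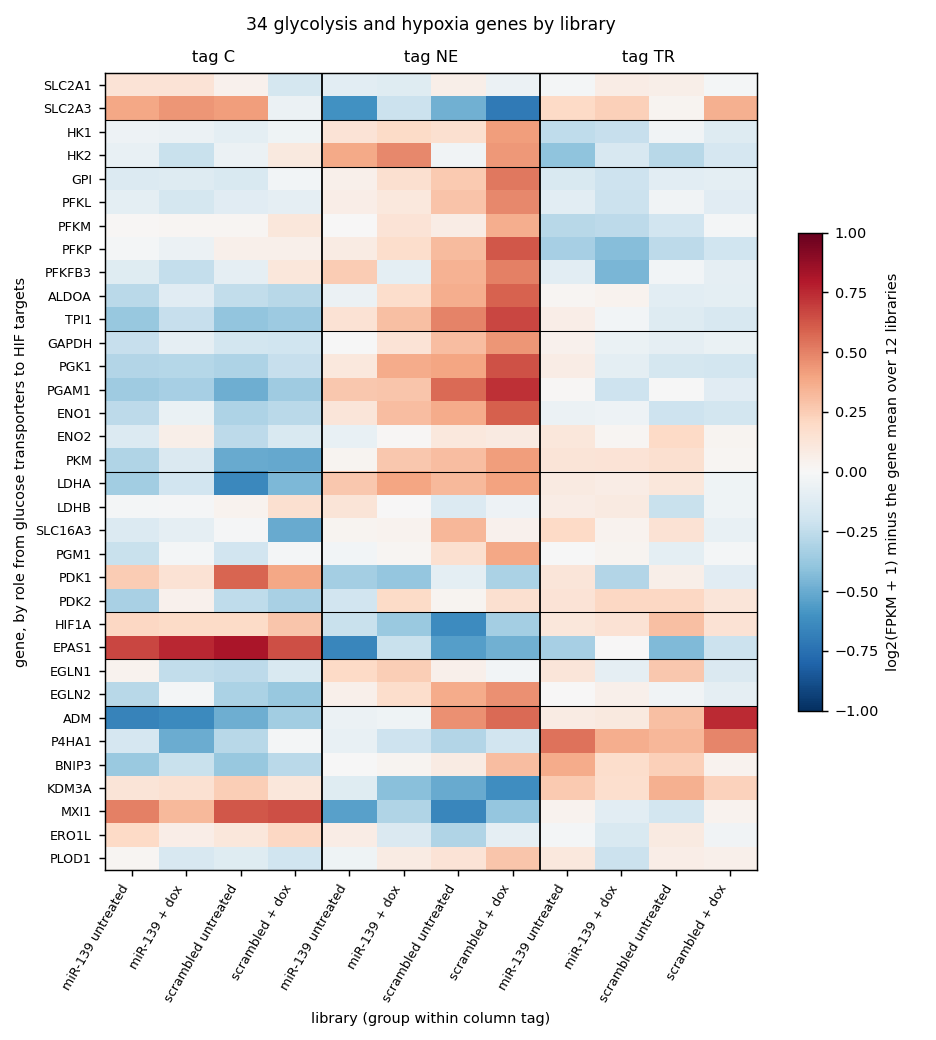
Level of each of the 34 tested genes (rows, by role) in each of the 12 libraries (columns, by tag and then group), as log2(FPKM + 1) minus the gene's mean over the libraries, on a colour scale from −1 (blue) to 1 (red). Within the NE block the glycolytic enzymes are mostly red and HIF1A, EPAS1, KDM3A, MXI1 and SLC2A3 blue, in all 4 groups.

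The glycolytic enzymes were higher in the NE libraries while both HIF alpha subunits were lower there. In limma 25 of the 34 members differed in NE (18 higher, 7 lower), against 52% of all genes (28% higher, 24% lower), so a call in itself was common. Of the 16 tested glycolytic enzymes, from hexokinase to lactate dehydrogenase, 14 were higher and 0 lower, with a median log2 difference of 0.39, and the median over the 34 members was 0.21 against 0.02 over all genes. Summed over the enzymes, glycolysis took 2.16 to 2.41% of the FPKM in NE, 1.66 to 1.89% in C and 1.90 to 2.05% in TR, without overlap. The libraries of 9 members in NE were all above those of C and TR (14% of all genes) and those of 4 all below (10% of all genes). In each of the 4 groups separately, 19 members were higher in NE than the mean of C and TR (30.6% of all genes) and 8 lower (26%).

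PGAM1, the phosphoglycerate mutase, differed most among the enzymes. It was at 447.2, 449.3, 550.6 and 615.3 FPKM in the NE libraries of the untreated and treated miR-139 line and the untreated and treated scrambled line, at 290.3, 293.9, 264.8 and 290.5 in C and at 373.4, 321.7, 369.9 and 343.6 in TR. All NE libraries were above all others (log2 0.69, SE 0.09, adjusted p = 3.8e-05 in limma, a 1.61-fold level). TPI1 was at 1188, 1322, 1518 and 1704 FPKM in NE in the same order, 823.7, 917.4, 818.0 and 835.4 in C and 1124, 1053, 983.4 and 960.3 in TR, again without overlap (log2 0.60, SE 0.10). LDHA had 1373, 1490, 1425 and 1500 FPKM in NE, 892.5, 996.2, 727.5 and 833.6 in C and 1210, 1196, 1228 and 1102 in TR, so that the tags formed 3 separate levels with C the lowest (NE log2 0.52, SE 0.09, adjusted p = 0.000317 in limma). LDHB did not follow: its NE difference was −0.02 (SE 0.08), and LDHA was 57.6 to 62.9% of the sum of both in NE, 43.4 to 52.0% in C and 54.8 to 60.7% in TR.

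The phosphoglycerate kinase PGK1 (log2 0.56, SE 0.09), ENO1 (0.53, SE 0.10) and PFKP (0.45, SE 0.07) had NE libraries above all others as well, as did HK1, GPI and PFKL. HK2 was higher by 0.47 (SE 0.10) with overlap. All 7 tested genes from GPI to TPI1, PFKFB3 included, and 5 of the 6 from GAPDH to PKM were called higher. The neuronal enolase ENO2 was not called (0.05, SE 0.07), and its share of enolase was 2.48 to 3.05% in NE against 3.61 to 3.80% in C and 3.66 to 4.59% in TR. GAPDH, often used as a reference gene, was at 2674, 2944, 3319 and 3638 FPKM in NE, 2281, 2516, 2357 and 2334 in C and 2768, 2561, 2520 and 2564 in TR (log2 0.33, SE 0.10, adjusted p = 0.0166 in limma). The NE library of untreated miR-139 cells lay below the TR library of the same cells for GAPDH, ALDOA (1182 against 1254 FPKM) and PKM (1415 against 1524). PKM was at 1415 to 1856 FPKM in NE, 1408 to 1559 in TR and 976.7 to 1262 in C. ALDOA was at 1182 to 1857, 1147 to 1263 and 1017 to 1140. For both genes NE overlapped TR, and C alone stood apart.

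HIF1A was at 58.5, 52.9, 44.1 and 54.0 FPKM in NE, 79.2, 78.2, 78.3 and 83.4 in C and 74.2, 75.8, 84.5 and 75.7 in TR. All 4 NE libraries were below all others (log2 −0.58, SE 0.08, adjusted p = 4.3e-05 in limma, a 0.667-fold level), and C and TR overlapped. EPAS1 was at 6.39, 8.92, 6.92 and 7.31 FPKM in NE and 8.19, 10.6, 7.51 and 8.996 in TR, which overlapped, and at 17.4, 18.5, 19.4 and 17.1 in C. C was therefore apart from both other tags (NE log2 −0.71, SE 0.08). The log2 difference of C minus TR was 0.97 (SE 0.10), which is 1.96-fold on FPKM + 1, with means of 18.1 FPKM in C and 8.82 in TR. EGLN2 was higher in NE (0.40, SE 0.09), with 38.3, 41.9, 47.9 and 51.0 FPKM there against 28.2 to 36.4 in C and 34.6 to 38.3 in TR. EGLN1, the main oxygen sensor of the family, was not called (0.18, SE 0.09, with 13.2 to 16.2 FPKM in NE, 11.1 to 13.9 in C and 12.1 to 16.5 in TR).

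Of the 7 other HIF targets 1 was called higher and 3 lower in NE against the mean of C and TR, but for 2 of these, ADM and P4HA1, NE did not lie outside both other tags. The histone demethylase KDM3A (log2 −0.62, SE 0.08) and MXI1, an antagonist of MYC (−0.70, SE 0.08), had all NE libraries below the others. ADM had a difference of 0.35 (SE 0.08), with a mean of 43.1 ± 9.97 FPKM in NE (SD, n = 4), 45.3 ± 10.6 in TR and 24.5 ± 2.64 in C, so that C alone stood apart. P4HA1 had −0.29 (SE 0.07), with 16.7 ± 1.08 FPKM in NE, 16.2 ± 2.35 in C and 26.2 ± 1.94 in TR, so that TR alone stood apart. The mitophagy receptor BNIP3 (0.16, SE 0.08), the endoplasmic reticulum oxidase ERO1L (−0.17, SE 0.07) and the lysyl hydroxylase PLOD1 (0.17, SE 0.08) were not called. SLC2A3 had 2.98, 4.23, 3.33 and 2.70 FPKM in NE, 6.91, 7.24, 7.09 and 4.81 in C and 5.95, 6.13, 5.16 and 6.75 in TR, with NE below all others (log2 −0.75, SE 0.11), while SLC2A1 was not called (−0.09, SE 0.07). PDK1 was lower in NE (−0.43, SE 0.09) and PGM1, which links glycogen to glycolysis, higher (0.20, SE 0.07).

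FPKM depends on what else a library holds, and the split of calls moved with the scaling. Of all genes called in NE 53.9% were higher as deposited, 39.7% with upper quartile scaling, 52.5% with quantile normalization and 40.9% when libraries were scaled to equal summed FPKM. The members called went from 18 higher and 7 lower to 16 and 9, 14 and 10, and 16 and 9. Of the 16 enzymes 14 were higher as deposited, 13 with upper quartile scaling, 13 with equal sums and 11 with quantile normalization, where LDHB was called lower. PFKM and PGM1 were called only as deposited, while HK1 and PKM lost their call with quantile normalization alone. SLC2A1 and ERO1L, not called as deposited, were called lower in NE with each of the other 3 scalings, SLC2A1 by −0.19, −0.22 and −0.19 and ERO1L by −0.27, −0.25 and −0.27 with upper quartile, quantile and equal-sum scaling. The 12 named genes with the largest NE difference kept their call in all 24 alternatives tried. Within the miR-139 line alone 13 members were higher and 7 lower in NE (19.4 and 16.6% of all genes), and within the scrambled line 21 and 8 (32.2 and 26.5%). The difference between the lines in the NE effect was called for 7 members in the higher direction in the scrambled line (10.3% of all genes) and 1 in the lower (6.21%). With upper quartile scaling it was called for 3 and 3 members (16.6% of all genes), and with quantile normalization for 1 and 2 (9.4%). With equal sums it was called for 1 and 5 members, where 20.6% of all genes were called and 12% of those were higher. Without 1 of several single libraries it was called for 0 members. Between C and TR 0 members (0% of all genes) had a difference between the lines.

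The low mitochondrial share and the higher sum of mitosis genes in NE move with these differences, and their part in them was not tested.

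**Figure D3:**
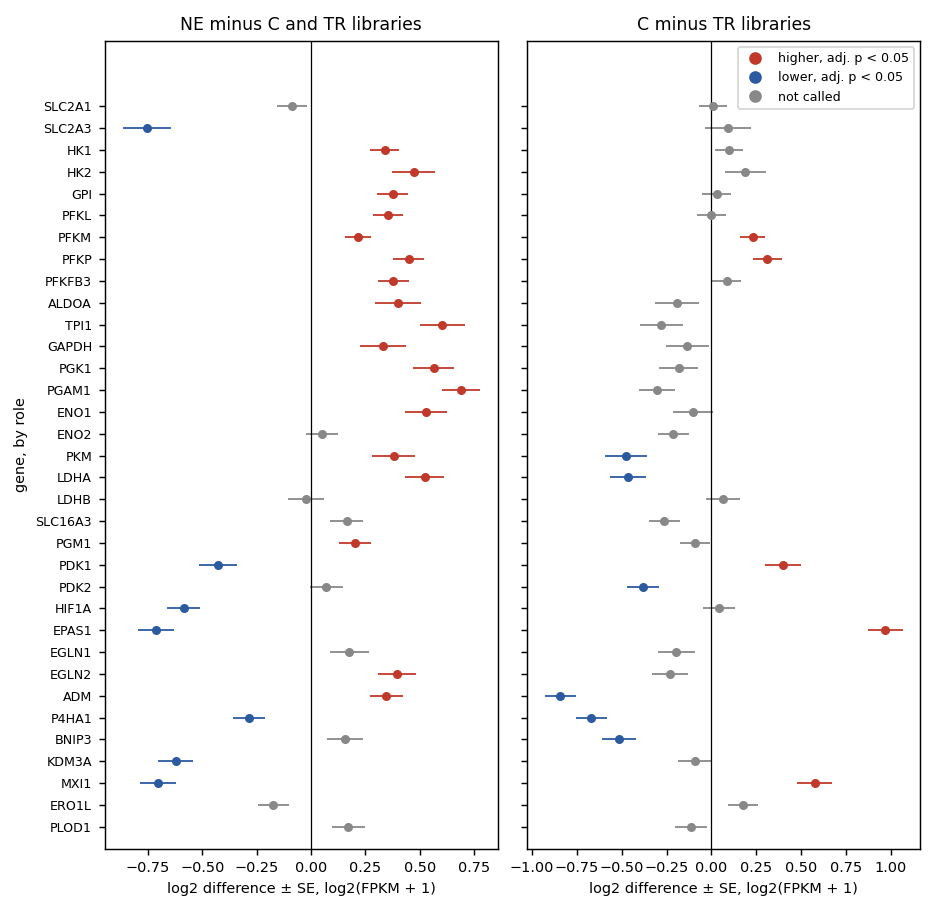
Log2 difference ± SE on log2(FPKM + 1) (x axes) of the 34 genes by role (y axis) for NE against the mean of C and TR (left) and C against TR (right), 4 libraries per tag; red and blue points passed an adjusted p of 0.05 in limma. The enzymes from HK1 to LDHA lie right of 0 on the left panel, with PGAM1 at 0.69 and SLC2A3 at −0.75 as the extremes.

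Between C and TR the members with the largest differences were EPAS1, higher in C, and ADM and P4HA1, lower in C. In limma 11 of 34 members were called (5 higher in C, 6 lower), against 16.6% of all genes (8.16% higher, 8.49% lower). The C libraries of 5 members were all above those of TR (14.3% of all genes) and those of 11 all below (13.6%). In each of the 4 groups 6 members were higher in C (22.5% of all genes) and 17 lower (21.5%), and the median difference was −0.10 against 0.01. ADM was at 22.2, 22.7, 25.3 and 27.9 FPKM in C and 37.9, 38.4, 44.3 and 60.6 in TR, a log2 difference of −0.84 (SE 0.09, adjusted p = 6.2e-05 in limma) without overlap. P4HA1 was at 17.0, 13.3, 15.6 and 18.9 FPKM in C and 28.4, 24.9, 24.3 and 27.2 in TR, also without overlap (−0.67, SE 0.09), and NE (18.1, 16.4, 15.5 and 16.7) lay with C. The fibroblast markers, almost all of it COL1A1, summed to 83.9 to 100.6 FPKM in TR, 33.3 to 58.5 in C and 41.6 to 57.2 in NE, while COL3A1 was at 0, and their part in these differences was not tested.

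BNIP3 (log2 −0.52, SE 0.09), PKM (−0.48, SE 0.12), LDHA (−0.46, SE 0.10) and PDK2 (−0.38, SE 0.09) were lower in C. EPAS1, MXI1 (0.58, SE 0.10), PDK1 (0.40, SE 0.10), PFKP (0.31, SE 0.08) and PFKM (0.23, SE 0.07) were higher in C. The kinases of pyruvate dehydrogenase thus differed in opposite directions, and the ratio of PDK1 to PDK2 was 0.301 to 0.527 in C, 0.187 to 0.276 in TR and 0.175 to 0.251 in NE. HIF1A was not called between C and TR (0.04, SE 0.09). The count of 11 fell to 6 without the C library of untreated scrambled cells, to 7 without that of treated scrambled cells, to 7 without the 3 treated miR-139 libraries and to 5 without the 3 untreated scrambled ones. EPAS1, ADM, P4HA1, MXI1 and BNIP3 kept their call in all 24 alternatives. The 8 listed genes of the ATF4 stress response that were among the genes analysed included ATF4 itself (mean 362.5 FPKM) and DDIT4. They summed to 570.2 to 1006 FPKM in C, above the 390.5 to 535.6 in TR and 392.4 to 537.6 in NE, and their part in these differences was not tested.

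**Figure D4:**
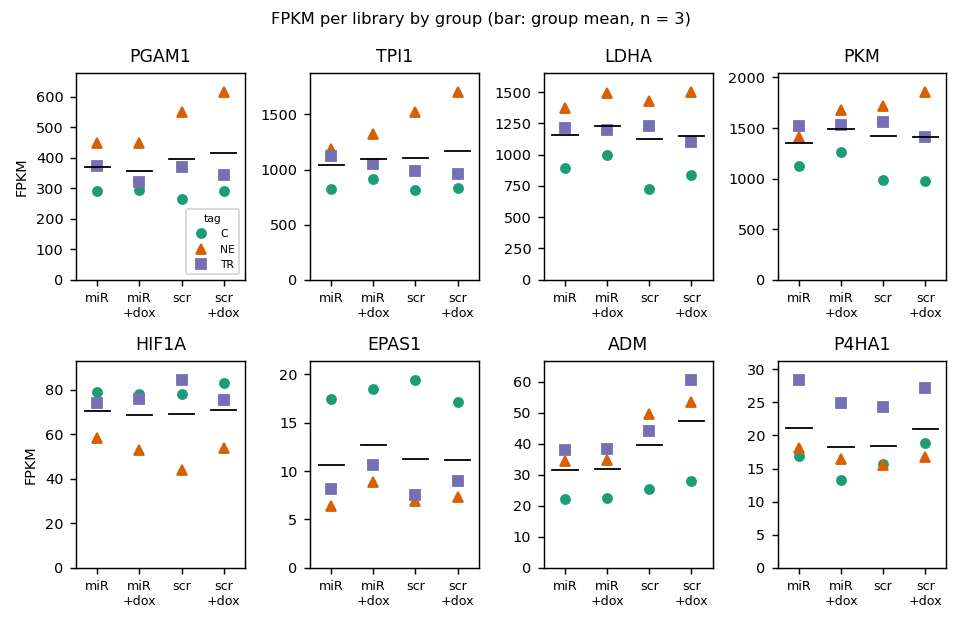
FPKM (y axes, from 0) of 8 genes in each library by group (x axes), with symbols for the tag (circle C, triangle NE, square TR) and a bar for the group mean (n = 3). The tags lie farther apart than the group means, with EPAS1 at 17.1 to 19.4 FPKM in C and 6.39 to 10.6 in NE and TR.

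Transcript length and base composition, which library preparation and sequencing can weigh differently, also moved with the NE difference. Over 7963 tested genes with a protein-coding transcript in GENCODE 29, split into 4 bins of about equal size by G+C content, the median NE difference was −0.21 in the lowest bin (30.2 to 43.0%), 0.03 and 0.15 in the middle bins and 0.15 in the highest. By transcript length it was 0.21 in the bin of the shortest transcripts and −0.13 in that of the longest. Among members the NE difference was above 0 in 0 of 4 genes of the lowest G+C bin, 4 of 8 in the second, 10 of 12 in the third and 10 of 10 in the highest. LDHA (44.0% G+C, 2416 bases) and PGK1 (43.3%, 4887 bases) were higher in NE. KDM3A (44.9%, 4928 bases) and MXI1 (43.8%, 3470 bases) were lower. HIF1A had 36.4% G+C and EPAS1 52.6%. The part of length and base composition in the NE differences was not tested.

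**Figure D5:**
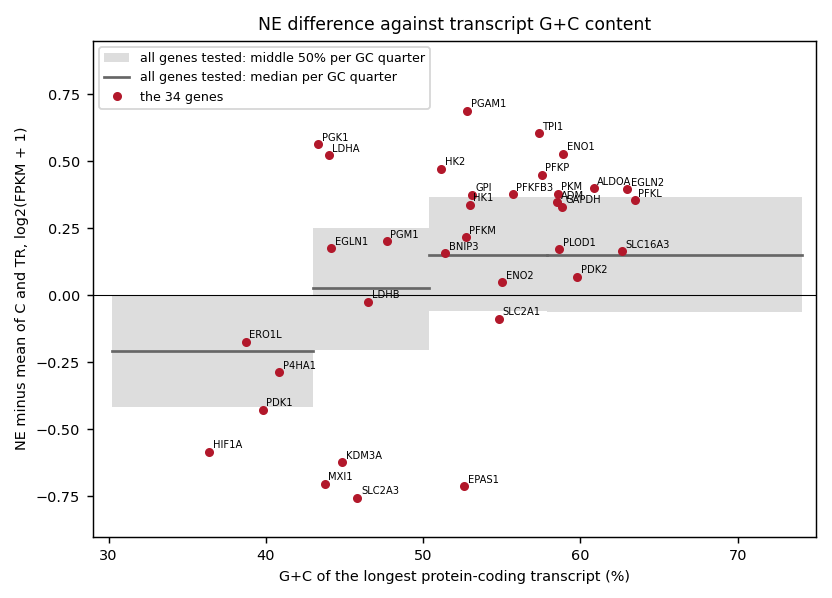
NE minus the mean of C and TR on log2(FPKM + 1) (y axis) against the G+C content of the longest protein-coding transcript (x axis) for the 34 genes, with the median (line) and the middle 50% (grey) of all tested genes in each of 4 bins of G+C content. PGAM1, PGK1 and LDHA are among the genes above the grey boxes, and HIF1A, KDM3A, MXI1, SLC2A3 and EPAS1 among those below.

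Promoters of HIF targets hold the core of the HIF binding element, ACGTG or GCGTG. These letters were searched on both strands in the 250 bases before each start in RefSeq (GRCh38.p14), for 35 members. A match was present in 21 of 35 (60%), against 43.2% of 35116 promoters and 55.9% of those of tested genes. ACGTG alone, which overlaps the E-box CACGTG that MYC and MXI1 partners bind, was present in 13 members (37.1%, against 18.5% of promoters and 22.4% of those of tested genes), and CACGTG in 5 (14.3%, against 6.35 and 8.05%). GCGTG was present in 13 (37.1%, against 32.2 and 44.4%). Matches were present in 11 of the 18 members higher in NE, 4 of the 6 lower ones with a promoter and 5 of the 9 not called. PGAM1 and TPI1, the enzymes with the largest NE difference, had 0 matches, as had MXI1, which was lower in NE. The promoters below all hold a match. They are shown because LDHA and PGK1 were higher in NE, KDM3A lower, and P4HA1 higher in TR than in the other tags, with matches in capitals on the transcript strand:

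LDHA: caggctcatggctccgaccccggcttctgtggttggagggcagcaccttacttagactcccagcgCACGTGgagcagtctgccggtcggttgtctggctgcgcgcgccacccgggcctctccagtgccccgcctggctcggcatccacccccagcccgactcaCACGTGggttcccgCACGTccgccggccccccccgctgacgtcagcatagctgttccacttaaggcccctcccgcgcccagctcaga
PGK1: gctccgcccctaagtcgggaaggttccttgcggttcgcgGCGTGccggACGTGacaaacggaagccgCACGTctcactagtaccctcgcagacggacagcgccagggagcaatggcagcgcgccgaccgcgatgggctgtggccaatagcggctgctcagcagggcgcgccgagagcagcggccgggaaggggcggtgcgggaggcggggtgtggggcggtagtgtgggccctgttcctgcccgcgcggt
KDM3A: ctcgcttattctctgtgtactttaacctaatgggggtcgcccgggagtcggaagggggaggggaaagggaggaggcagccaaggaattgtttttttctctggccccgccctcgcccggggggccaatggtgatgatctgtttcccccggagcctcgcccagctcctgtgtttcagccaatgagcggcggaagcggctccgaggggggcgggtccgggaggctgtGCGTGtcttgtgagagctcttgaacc
P4HA1: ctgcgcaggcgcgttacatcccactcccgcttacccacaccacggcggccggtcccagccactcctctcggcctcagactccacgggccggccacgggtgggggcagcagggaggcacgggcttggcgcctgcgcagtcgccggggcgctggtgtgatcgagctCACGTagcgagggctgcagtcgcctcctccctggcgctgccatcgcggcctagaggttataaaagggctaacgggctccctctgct

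They lie at chr11:18394313-18394562 (LDHA), chrX:78103998-78104247 (PGK1), chr2:86441121-86441370 (KDM3A) and chr10:73096867-73097116 (P4HA1, minus strand). LDHA has 5 matches, of which 4 lie in CACGTG and count on both strands, PGK1 has 3, and KDM3A and P4HA1 have 1 each. A match was thus present in genes higher and in genes lower in NE, and it is a description of letters and not a bound site.

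Other genes of these pathways were listed apart from the 36, 104 in all, of which 59 were in the table and 45 tested, 1 of them on both lists. In the comparisons of groups 0 of the 45 were called with or without the block. In NE 7 of 24 tested genes around glycolysis and pyruvate were higher and 5 lower, and 7 and 5 of 22 hypoxia genes, against the 28% and 24% of all genes. TXNIP, which restrains glucose uptake, had the largest difference of these, with 11.3 to 18.1 FPKM in NE, 42.0 to 94.3 in C and 46.1 to 75.9 in TR (log2 −2.14, SE 0.19, adjusted p = 4.42e-06 in limma), and no overlap. DDIT4, an inhibitor of mTORC1 that hypoxia and stress induce, was at 11.95 to 19.3 FPKM in NE, 17.0 to 28.1 in TR and 26.3 to 90.4 in C (NE log2 −1.15, SE 0.19; C minus TR 1.21, SE 0.21).

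The oxygenase JMJD6 (log2 0.79, SE 0.08), the LIM-domain protein CSRP2 (0.70, SE 0.09), the pentose phosphate enzyme TALDO1 (0.63, SE 0.08) and the cytokine MIF (0.45, SE 0.09) were higher in NE. PFKFB2 was called lower (−0.47, SE 0.10), but its 1.49 to 2.04 FPKM in NE overlapped the 1.84 to 2.32 in TR. C alone, at 3.15 to 3.73 FPKM, stood apart for PFKFB2. The carbonic anhydrase CA12 was called lower against the mean of C and TR (−0.46, SE 0.11), but its mean of 1.47 FPKM in NE was above the 1.11 in C, and only TR, at 4.30, stood apart. Between C and TR, 3 of 24 and 2 of 22 genes were higher and 2 and 5 lower, against 8.16% higher and 8.49% lower of all genes. PCK2, a mitochondrial enzyme of gluconeogenesis, was at 29.8 to 61.9 FPKM in C and 17.6 to 22.6 in TR (log2 1.13, SE 0.15), and the glycogen phosphorylase PYGL at 138.3 to 157.9 and 88.2 to 111.2 (0.57, SE 0.08). CA12 was at 0.906 to 1.3 FPKM in C and 3.497 to 5.07 in TR (−1.33, SE 0.12). TGFA, a growth factor (−0.57, SE 0.09), pyruvate carboxylase PC (−0.53, SE 0.13) and PPFIA4 (−0.61, SE 0.16) were lower in C as well, and PFKFB2 was higher (0.56, SE 0.12).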

How the data were processed

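PolyA RNA of 12 CAL62 libraries was measured: per the labels, RNA was extracted with Trizol, libraries were made with the NEBNext Ultra II Directional kit and sequenced on a HiSeq2500. The authors deposited FPKM values per gene. Tools listed in the submitters' processing notes are STAR 2.5, Cufflinks, HTSeq, TopHat, TopHat2 2.0.10, FastQC 0.11.0, Bowtie 1.0.0 and SAMtools in versions 1.3.1 and 0.1.19, with the builds hg19 and GRCh37. Not given in the sources used here were the tool and annotation behind the FPKM values and any use of strand. Because FPKM is relative to the whole library, a larger share for some genes lowers all others. Not analysed here were the genes on chromosomes 3 to 9, so ranks, summed FPKM and shares of it, scaling to equal sums and every share of all genes cover the other chromosomes only.

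Columns were matched to groups by name, and libraries are called by group and tag. Genes with a mean of at least 1 FPKM (9778 of 37471) were fitted as log2(FPKM + 1) with a variance trend (limma 3.58.1, R 4.3.3) and Benjamini-Hochberg adjustment over all 9778 genes at 0.05, two-sided; this scale understates the change of low genes. The group comparisons were fitted with the 4 group means, and again with the tag as a replicate block, since all 18 same-tag pairs correlated. The tag comparisons had the group as a term. The fits were tested on simulated data.

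The members, the lists and the split of NE from C and TR were chosen with earlier results of these data known. Named with values were, per group comparison, the members called or the 4 with the largest change, per tag comparison the members called (12 at most by size), and always the HIF alpha subunits, prolyl hydroxylases, GAPDH and LDHA; of other pathway genes, 4 called in each direction. Other members named for a share, a seed match or libraries that do not overlap were chosen after their values were seen. Alternatives were another pseudocount (0.1), minimum (5 FPKM or none), scaling, no variance trend, and leaving out libraries. Seed sites, transcript length and G+C came from GENCODE 29 (GRCh38), and promoters and the microRNA from RefSeq (GRCh38.p14), which is not the build that the notes name.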

Additional observations from a re-analysis of the deposited data

Results flagged for a closer look

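The NE difference was larger in the scrambled line than in the miR-139 line for 7 members and smaller, that is further below 0, for 1, by a test of the difference itself that was added after seeing the data (limma, adjusted p from 0.0214 to 0.0499; 16.5% of all genes were called). The difference between the lines was 0.52 for ALDOA, 0.48 for TPI1, 0.44 for EGLN2, 0.40 for ENO1, 0.39 for PGAM1, 0.38 for PKM, 0.31 for PGM1 and −0.35 for KDM3A on the log2 scale. ALDOA was at 1182 and 1398 FPKM in the NE libraries of the miR-139 line and at 1585 and 1857 in those of the scrambled line. These calls depended on the scaling and on single libraries. Upper quartile scaling gave 3 members higher and 3 lower in the scrambled line (16.6% of all genes called), and quantile normalization 1 and 2 (9.4%). With libraries scaled to equal summed FPKM 1 member was higher and 5 were lower in the scrambled line. With that scaling 20.6% of all genes were called, and 12% of those were higher. Leaving out the NE or the TR library of untreated miR-139 cells, or the NE library of treated scrambled cells, left 0 members.

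P4HA1 had opposite doxycycline changes in the 2 lines in every library pair of one tag (interaction −0.39), and that difference missed the threshold in limma with the replicate block (SE 0.14, adjusted p = 1.00).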

How the results depend on the processing

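In the 5 group comparisons 0 of 34 members were called in each of the 42 alternatives tried per comparison, with the replicate block (also without the NE libraries) as without it. The block changed no call of a member: the tag pairs the libraries, and ADM in the treated lines came nearest, with adjusted p = 0.113 and a lowest value of 0.0662 over the alternatives. Leaving out 1 library reversed the sign of these small changes, given as the range over left-out libraries: SLC2A3 interaction −0.014 to 0.53, PDK1 untreated −0.31 to 0.036, P4HA1 with doxycycline in the miR-139 line −0.45 to 0.0071, P4HA1 untreated −0.043 to 0.38, EPAS1 with doxycycline in the miR-139 line −0.0066 to 0.67, ADM with doxycycline in the scrambled line −0.057 to 0.57 and PDK1 there −0.39 to 0.010. The cause was not tested.

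In NE the 25 members called became 20 to 29 over 24 alternatives. Between C and TR the 11 became 5 to 13: leaving out 1 library gave 6 to 13, the treated miR-139 libraries 7 and the untreated scrambled libraries 5, where fewer samples entered. PFKM lost its call in 15 of 24 alternatives, PFKP in 8, PDK1 in 7, PKM in 5, LDHA in 3 and PDK2 in 2. The 8 members with a different NE effect in the lines became 0 with no filter and 0 with no variance trend. Quantile normalization gave 1 higher and 2 lower in the scrambled line (9.4% of all genes called). Upper quartile scaling gave 3 higher and 3 lower (16.6% of all genes called). Leaving out 1 library gave 0 to 8 members (0 to 4 for 9 of the 12). Scaling to equal summed FPKM was chosen after seeing the data. Depth is known only as a ratio between libraries, so no detection floor is given for the 2 members under 1 FPKM.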
